A study of Drosophila melanogaster with 2 samples.

Results

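miR-1 and miR-133 are the muscle microRNAs of the fly. Their mature products were taken as every known product named miR-1 or miR-133 with the suffix 5p or 3p, which gave 4 products of the 240 known mature miRNAs listed in either library: dme-miR-1-3p, dme-miR-1-5p, dme-miR-133-3p and dme-miR-133-5p, called here by these names without the species prefix. Each was listed in both libraries. The study sequenced small RNA of 18 to 30 nt from heads of adult Drosophila melanogaster females of the Canton-S strain, a laboratory wild type, aged 3 to 5 days. The ethanol library came from flies given ethanol vapour for 15 minutes, by which time all were sedated, and then ethanol-free air for 30 minutes. The control library came from flies given ethanol-free air for 45 minutes. Each library was made from 1 pool of about 180 flies, whose frozen heads were separated from the bodies on sieves. With 1 library per group there is no replicate check, no test between treatments was possible, and a difference between the libraries cannot be told apart from a difference between the treatments.

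A microRNA is cut from a hairpin precursor whose 2 arms can each give a mature product, named 5p and 3p. One product of the pair is usually kept in an Argonaute protein and lowers the output of messenger RNAs that match its seed, bases 2 to 8 from its 5′ end, while the other is mostly degraded. In the fly, mir-1 is switched on in muscle by the transcription factors Twist and Mef2, and larvae that lack it die with failing muscles. miR-1 and miR-133 are muscle microRNAs in vertebrates too, where a mir-1 and a mir-133 hairpin come from a shared transcript. A fly head holds muscles that move the proboscis, the pharynx and the antennae, besides brain, eyes and fat body. In a pooled head sample, fewer muscle cells and less microRNA per muscle cell cannot be told apart.

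The 4 sequences are shown because the seed sets the targets of each product and because the abundant and the rare product of each hairpin differ in their first bases. They are the sequences of the deposited tables, written 5′ to 3′ with T for U, and capitals mark the seed.
miR-1-3p: tGGAATGTaaagaagtatggag
miR-1-5p: cCATGCTTccttgcattcaata
miR-133-3p: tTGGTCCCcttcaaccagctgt
miR-133-5p: aGCTGGTTgacatcgggtcagat

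miR-1-3p, miR-1-5p and miR-133-3p had 22 bases and miR-133-5p had 23. No other listed product shared a seed with any of the 4, and the 4 seeds differed from each other, so the abundant products of the 2 hairpins do not form a seed family. The nearest other listed product was 8 edits (substitutions, insertions or deletions) from miR-1-3p, miR-133-3p and miR-133-5p, and 9 from miR-1-5p. miR-1-3p held no C, as did 4 of the 221 products listed in both libraries, itself included. Both 3p products began with T, miR-1-5p began with C and miR-133-5p with A. Guanine made up 36.4% of miR-1-3p, 9.09% of miR-1-5p, 18.2% of miR-133-3p and 34.8% of miR-133-5p.

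In the BDGP6 annotation both hairpins lie on the forward strand of chromosome arm 2L. mir-1 overlaps the long non-coding RNA gene lncRNA:CR45361 on the same strand, and mir-133 overlaps lncRNA:CR44909, which runs on the opposite strand. Unlike neighbouring hairpins of a cluster, they are separated by 4 protein-coding genes and by the hairpin mir-4973. The product miR-4973-5p had 12 reads in each library, and miR-4973-3p had 6 reads in the control library and is not listed in the ethanol table, which lists counts of 5 or more.

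The ethanol library held 17600983 reads, of which 13128478 (74.6%) were assigned to 228 known products. The control library held 17337082 reads, of which 13692046 (79.0%) were assigned to 233. The RNA integrity number was 6.40 for the ethanol RNA and 6.80 for the control RNA. The part of RNA integrity in any difference below was not tested. All intervals below are 95% intervals and cover counting error only, because without molecular identifiers several reads can be PCR copies of the same molecule.

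miR-1-3p, the product that carries the muscle function of mir-1, was one of the 2 most abundant microRNAs of the head in both libraries. It had 3949207 reads in the ethanol library and 4281649 in the control library. This was 30.1% (exact interval 30.06 to 30.11%) of known miRNA reads in the ethanol library and 31.3% (31.25 to 31.30%) in the control library. Of all reads it took 22.4% in the ethanol library and 24.7% in the control library. It ranked 2 behind miR-184-3p in the ethanol library and 1 in the control library. The reads of miR-1-3p were 0.959 times those of miR-184-3p in the ethanol library and 1.22 times in the control library. All products but the 4 most abundant, 224 in the ethanol library and 229 in the control library, added up to fewer reads than miR-1-3p alone, whose reads were 1.35 times their sum in the ethanol library and 1.52 times in the control library.

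miR-133-3p, the abundant product of the other hairpin, lay far below miR-1-3p but above most listed products. Its reads were 29.8 times the median of the listed products in the ethanol library and 45.2 times in the control library. It had 11266 reads in the ethanol library and 14293 in the control library. Its level was 858 CPM in the ethanol library and 1044 CPM in the control library, where CPM is reads per 1000000 known miRNA reads. It ranked 44 in the ethanol library and 40 in the control library. The products next to it in the control library were miR-305-5p and miR-2a-2-5p above and miR-993-3p and miR-284-5p below, with between 813 and 1141 CPM in the ethanol library and between 912 and 1079 CPM in the control library. miR-1-3p had 351 times the reads of miR-133-3p in the ethanol library and 299.6 times in the control library. The 2 muscle microRNAs thus differed in reads by more than 2 orders of magnitude in each library. Whether the libraries took up different sequences equally well was not tested, here or for the arm ratios below.

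The 5p products were rare. miR-133-5p had 81 reads (6.17 CPM) in the ethanol library and 111 reads (8.11 CPM) in the control library. miR-1-5p had 31 reads (2.36 CPM) in the ethanol library and 48 reads (3.51 CPM) in the control library, that is 1 in 423499 known miRNA reads in the ethanol library and 1 in 285251 in the control library. miR-133-5p ranked 154 in the ethanol library and 147 in the control library, and miR-1-5p ranked 179 in the ethanol library and 170 in the control library. Products of like abundance differed between the libraries in both directions. The control neighbours of miR-1-5p were miR-1016-3p, miR-279-5p, miR-304-5p and miR-4976-5p, with 70, 49, 141 and 5 reads in the ethanol library and 52, 49, 47 and 45 in the control library. Those of miR-133-5p were miR-316-5p, miR-283-3p, miR-4960-3p and miR-9c-3p, with 187, 73, 139 and 131 reads in the ethanol library and 116, 116, 109 and 106 in the control library. Among the 5p products the order of the hairpins was the opposite of that among the 3p products. miR-133-5p had 2.61 times the reads of miR-1-5p in the ethanol library and 2.31 times in the control library.

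**Figure D1:**
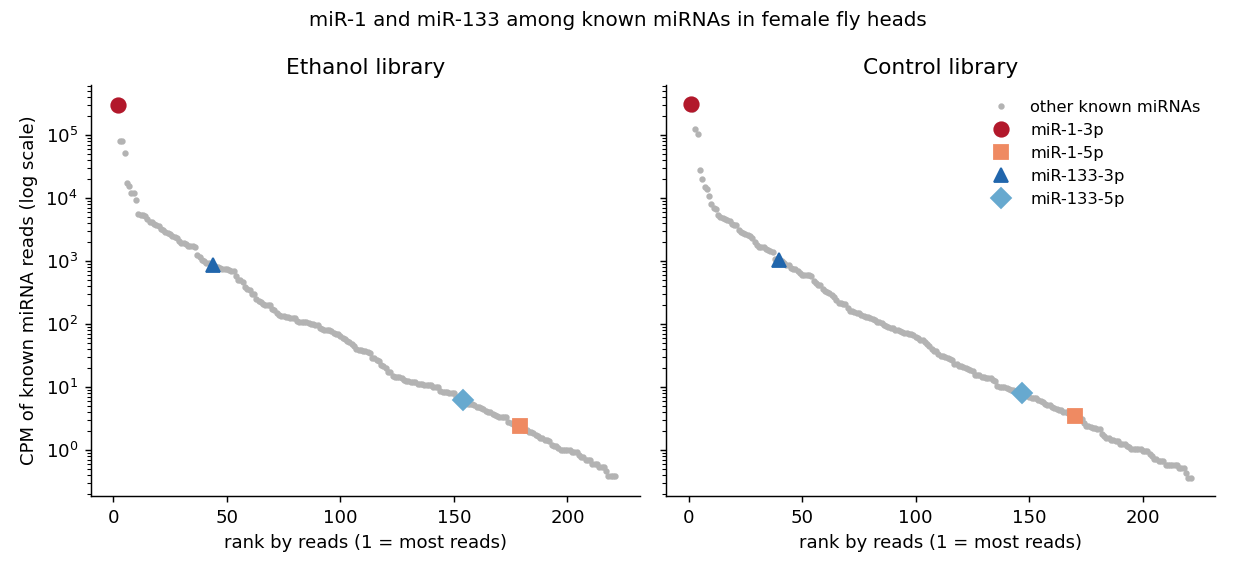
Level of each known miRNA listed in both libraries, in CPM of known miRNA reads on a log scale, against its rank among these 221 products, in the ethanol library and the control library (1 library each). miR-1-3p is one of the 2 highest, at 300812 CPM in the ethanol library and 312711 CPM in the control library, miR-133-3p far below it at 858 and 1044 CPM, and both 5p products lower still, under 10 CPM.

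The study set ethanol against control to find microRNA levels that differ after a single sedating exposure, and each muscle product had a ratio within 2-fold. miR-1-3p had a CPM ratio, ethanol over control, of 0.962 (0.961 to 0.963). miR-133-3p had a ratio of 0.822 (0.802 to 0.843), so it was 1.22-fold lower in the ethanol library. For miR-133-5p the ratio was 0.761 (0.564 to 1.02). For miR-1-5p it was 0.674 (0.414 to 1.08). All 4 ratios lay below 1, and the 4 products come from only 2 hairpins. Over the 168 products with at least 100 reads in the 2 libraries together, the median log2 ratio was also below 0, at -0.020. The counting interval excluded 1 for the 3p muscle products and held it for the 5p products, which rest on far fewer reads. With the 4 most abundant products left out of the denominator the intervals of both 5p products lay below 1, and with RPM that of miR-133-5p did.

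Ratios were read against the 168 products whose reads in the 2 libraries summed to 100 or more, which include 3 of the 4 muscle products. miR-1-5p, with 79 reads over both, was left out of this set. A fold of 2 either way was passed by 3.57% of the 168, and by none of the 3. Of the 168, 38.1% had a counting interval below 1, among them miR-1-3p and miR-133-3p, and 36.9% had one above 1. Among the 58 products with 10000 reads or more, the interval excluded 1 for 55, so an interval clear of 1 was the usual case for products read as deeply as these 2. The median log2 ratio of the 3 muscle products, -0.28, is simply the value of miR-133-3p, and 2 of the 3 are arms of mir-133. For all 168 the median was -0.020, with quartiles of -0.28 and 0.32. By log2 ratio, 76 of the 168 lay below miR-1-3p, 41 below miR-133-3p and 31 below miR-133-5p. miR-1-3p thus lay near the middle of the distribution, miR-133-3p at its lower quartile and miR-133-5p below that quartile.

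**Figure D2:**
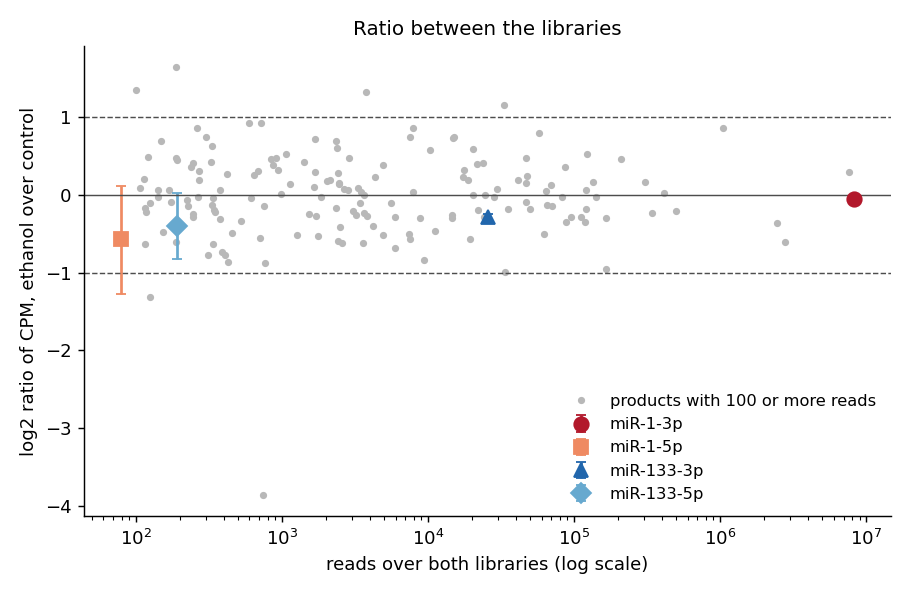
Log2 ratio of CPM, ethanol over control, against reads over both libraries on a log scale, for the 168 compared products (grey) and the 4 muscle products (coloured, bars are 95% counting intervals). Dashed lines mark 2-fold. The muscle products lie at -0.06 (miR-1-3p), -0.28 (miR-133-3p), -0.39 (miR-133-5p) and -0.57 (miR-1-5p), and none reaches a dashed line, although the bar of miR-1-5p crosses one.

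Among the 168 compared products, those with the ratio nearest to that of each muscle product came from other hairpins. For miR-1-3p they were miR-281-1-5p, miR-308-5p and miR-967-5p, with log2 ratios between -0.07 and -0.03. For miR-133-3p they were miR-981-5p, miR-998-5p and miR-316-3p, all with -0.28. For miR-133-5p they were miR-5-5p, miR-2c-3p and miR-34-5p, with -0.40, -0.41 and -0.35. For miR-1-5p they were miR-986-5p, miR-932-3p and miR-999-5p, with -0.57, -0.57 and -0.59. With 2 libraries, such likeness describes a single ratio.

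Within a library, the ratio of one product to another does not depend on how the libraries are scaled to each other. The ratio of miR-133-3p to miR-1-3p was 1.17-fold lower in the ethanol library (1.14 to 1.20), an interval that excluded equality. The ratio of miR-133-5p to miR-1-5p had a value of 1.13 between the libraries, ethanol over control, with an interval of 0.641 to 2.01 that held 1. So the 3p products of the 2 hairpins did not keep a fixed proportion between the libraries beyond counting error. Intervals clear of 1 were usual for products read this deeply, in 55 of the 58 single products with 10000 reads or more. For the 5p products a difference was not detectable at their depth.

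The arms of mir-1 were far apart in reads. miR-1-3p had 127394 times the reads of miR-1-5p in the ethanol library and 89201 times in the control library. The 5p arm thus gave 0.000785% (0.000533 to 0.00111%) of the hairpin's reads in the ethanol library and 0.00112% (0.000827 to 0.00149%) in the control library. For mir-133 the 3p arm had 139 times the reads of the 5p arm in the ethanol library and 129 times in the control library. Its 5p share was 0.714% (0.567 to 0.886%) in the ethanol library and 0.771% (0.634 to 0.927%) in the control library. In both hairpins and in both libraries the 3p arm was the abundant one.

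Both arms were listed in both libraries for 78 hairpins, and mir-1 had the largest arm imbalance of them in each library. The next were mir-184, whose 3p arm had 21798 times the reads of its 5p arm in the ethanol library and 18511 times in the control library, and mir-31a, whose 5p arm led by 9781 times in the ethanol library and 5602 times in the control library. mir-133 ranked 18 of the 78 in each library. The median imbalance was 18.5 in the ethanol library and 15.7 in the control library. An imbalance of over 1000 was seen in 5 hairpins in the ethanol library and in 6 in the control library. Hairpins whose rarer arm fell under 5 reads are outside this ranking, so it holds for the 78 only.

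**Figure D3:**
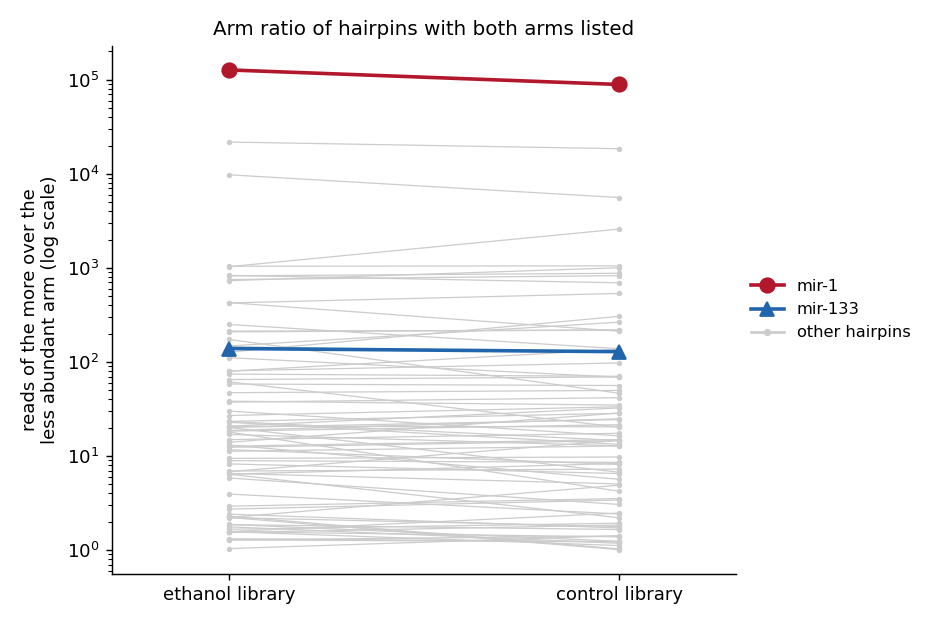
Reads of the more abundant arm over reads of the less abundant arm on a log scale, in the ethanol library and the control library, for 78 hairpins, each joined by a line. mir-1 lies above all other hairpins in both libraries, at 127394 and 89201, and mir-133 lies in the upper part of the field, at 139 and 129.

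The arm ratios of both muscle hairpins differed between the libraries by no more than counting error allows. The ratio of 3p to 5p reads of mir-1, ethanol over control, was 1.43 (0.891 to 2.32), and that of mir-133 was 1.08 (0.803 to 1.46). Both intervals held 1, whereas the interval excluded 1 for 55.1% of the 78 hairpins. A difference of up to 2.32-fold in mir-1 is not excluded by its 79 reads of the 5p arm. By size, mir-1 ranked 31 and mir-133 ranked 65 of the 78 differences. The 3 largest were those of mir-308, mir-1003 and mir-11, with folds of 14.1, 4.27 and 3.74 either way.

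The arms were also described as predicted duplexes, since the arm whose 5′ end is paired less firmly is known to be favoured when a duplex is loaded into Argonaute, and the fly's Argonaute-1 is known to hold many products that begin with U. The predicted duplex of the mir-1 arms had 17 base pairs and a free energy of -23.5 kcal/mol, and that of the mir-133 arms 17 base pairs and -22.6 kcal/mol. Over the 78 hairpins the medians were 17 base pairs and -19.9 kcal/mol. In mir-1 the first 2 bases of miR-1-3p were unpaired and the first base of miR-1-5p was paired. In mir-133 the first base of either product was paired, so its arms did not differ in the number of unpaired 5′ bases. How firmly the paired ends were held was not compared. Among the 78 hairpins the more abundant arm in the control library had more unpaired 5′ bases than the other in 42, fewer in 18 and as many in 18. It began with T in 54 of the 78, as in both muscle hairpins, and the less abundant arm did so in 21.

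Products described in other tissues, not all of them tissues of the head, give a scale for the muscle products within each library. The pairs were set up after earlier results of these data were known, each with the most-read product of a marker list. miR-1-3p had 71.5 times the reads of miR-124-3p, the neuronal microRNA, in the ethanol library, against 38.5 times in the control library, 1.86-fold higher (1.84 to 1.88). Against miR-263a-5p of sense organs it had 32.97 times the reads in the ethanol library and 47.1 times in the control library, 1.43-fold lower (1.42 to 1.44). Of the 10 sense organ and eye products, 8 had a CPM ratio above that of miR-1-3p and 2, miR-263a-3p and miR-996-5p, had one below it, so the direction also differed within the list. Against miR-33-5p, whose hairpin sits inside the SREBP gene of lipid synthesis, it had 17.3 times the reads in the ethanol library and 15.6 times in the control library, 1.10-fold higher (1.10 to 1.11). Of the 8 fat body and metabolism products, 7 had a CPM ratio below that of miR-1-3p and 1, miR-277-3p, had one above it. The direction of the difference in miR-1-3p therefore depended on the product it was set against.

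miR-133-3p stood on the same side as miR-1-3p against the neuronal and the sense organ product and on the other side against miR-33-5p. Its reads were 0.204 times those of miR-124-3p in the ethanol library and 0.129 times in the control library, 1.59-fold higher (1.54 to 1.63). They were 0.0940 times those of miR-263a-5p in the ethanol library and 0.157 times in the control library, 1.67-fold lower (1.63 to 1.72), and the same 2 sense organ products had ratios below that of miR-133-3p. Against miR-33-5p the ratio was 0.0493 in the ethanol library and 0.0522 in the control library, 1.06-fold lower (1.03 to 1.09). The fat body and metabolism list was split around miR-133-3p, with 5 of the 8 CPM ratios above its own and 3 below. The 3 below were those of miR-14-5p, miR-277-5p and miR-278-5p. Against the gut product miR-281-2-5p both muscle products were lower, miR-1-3p by 1.10-fold (1.03 to 1.18) and miR-133-3p by 1.29-fold (1.201 to 1.39). All 3 gut products had a CPM ratio above that of miR-133-3p. Only 2 had one above that of miR-1-3p, and 1, miR-281-1-5p, had one below it. The counting intervals of all 3 held 1. Against miR-5-5p of the early embryo cluster both were higher, with values of 1.27 (1.19 to 1.35) for miR-1-3p and 1.08 (1.01 to 1.16) for miR-133-3p. miR-5-5p was not typical of its list. Of the 11 ovary and early embryo products, 8 had a CPM ratio above those of miR-1-3p and of miR-133-3p, so against most of them the muscle products were lower, though 9 of the 11 had under 100 reads over both libraries.

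miR-9a and miR-92b are microRNAs with described roles in fly muscle that are not specific to it. miR-9a is known to limit the transcription cofactor Lmo, and miR-92b acts in a feedback loop with Mef2. Their 3 compared products had counting intervals above 1, as did 36.9% of all 168, with log2 ratios of 0.23 for miR-9a-5p, 0.61 for miR-9a-3p and 0.93 for miR-92b-3p, and none reached 2-fold. miR-92b-3p had 383 reads in the ethanol library and 209 in the control library. miR-1-3p was 1.22-fold lower against miR-9a-5p in the ethanol library (1.18 to 1.26), and miR-133-3p 1.43-fold lower (1.37 to 1.48). The muscle hairpins and these 2 wider-acting ones thus lay on opposite sides of 1 in CPM.

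The summed levels were higher in the ethanol library for some marker lists and lower for others. The 4 muscle products summed to 301679 CPM in the ethanol library and 313766 CPM in the control library. The neuron list, both arms of miR-124, summed to 4225 CPM in the ethanol library and 8150 CPM in the control library. The sense organ and eye list, with 10 products, summed to 15873 CPM in the ethanol library and 13324 CPM in the control library. The fat body and metabolism list, with 8 products, summed to 27358 CPM in the ethanol library and 32289 CPM in the control library. The gut list summed to 140 CPM in the ethanol library and 134 CPM in the control library, and the ovary and early embryo list to 155 CPM in the ethanol library and 191 CPM in the control library. In each list the most-read product carried a large part of the sum. The muscle list without miR-1-3p summed to 867 CPM in the ethanol library and 1056 CPM in the control library. The neuron list without miR-124-3p summed to 20.1 CPM in the ethanol library and 37.0 CPM in the control library. The order of the gut list was reversed without miR-281-2-5p, at 13.4 CPM in the ethanol library and 13.9 CPM in the control library. Without miR-263a-5p the other 9 sense organ and eye products summed to 6748 CPM in the ethanol library and 6687 CPM in the control library, and without miR-5-5p the other 10 ovary and early embryo products summed to 19.0 CPM in the ethanol library and 12.8 CPM in the control library. The part of differing tissue proportions between the pools in the muscle values was not tested.

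Because miR-1-3p filled so large a share of the known miRNA reads, it also weighed on the scale on which the others were measured. With miR-1-3p left out of the denominator, 9179271 reads remained in the ethanol library and 9410397 in the control library. The log2 ratio of miR-133-3p was then -0.31, against -0.28 with miR-1-3p kept, and the median over the 168 products was -0.044. Over the 8 ways of scaling or correcting that were tried, the log2 ratio of miR-133-3p ranged from -0.44 to -0.26 and that of miR-1-3p from -0.18 to 0.20. The one positive value of miR-1-3p came after a straight line in guanine content was subtracted. Across the 168 products of these 2 libraries the log2 ratio was lower with more guanine (Spearman's rho = -0.50), and guanine made up a median of 22.9% of a sequence. The sign of the small difference in miR-1-3p therefore was not the same under every correction, whereas miR-133-3p, miR-133-5p and miR-1-5p lay below 0 under all 8. The ratios between products within a library, given above, were not corrected for guanine. Guanine made up 36.4% of miR-1-3p, 21.7% of miR-9a-5p and 27.3% of miR-281-2-5p. The line had a slope of -0.023 log2 units per percent of guanine, so a pair that differs in guanine would shift under it. Without it, the log2 values of miR-1-3p between the libraries were -0.29 against miR-9a-5p and -0.14 against miR-281-2-5p. The directions of such pairs therefore need not hold under that correction, which was not tested on pairs.

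**Figure D4:**
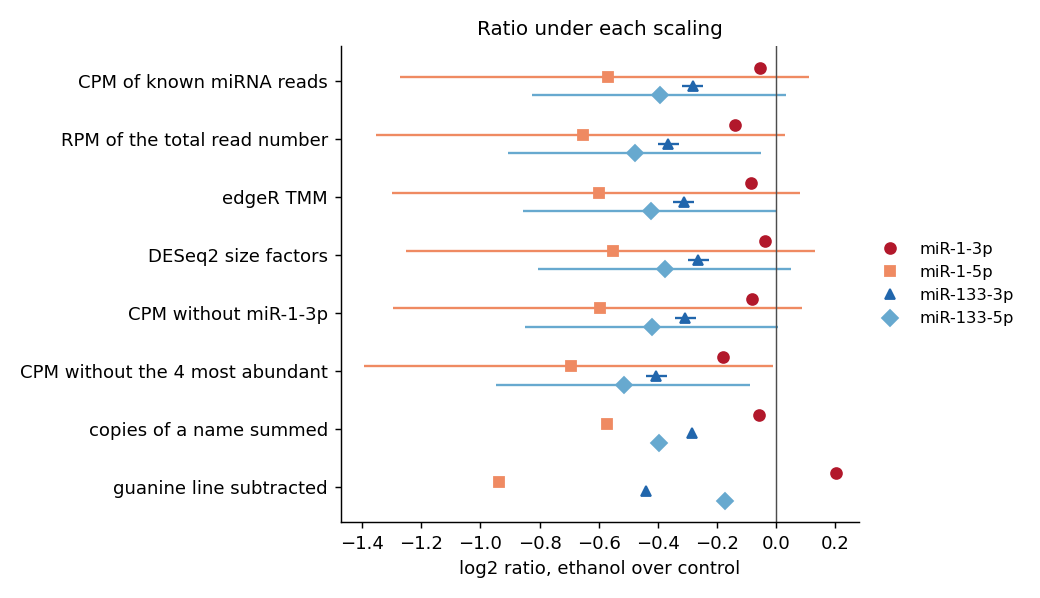
Log2 ratio, ethanol over control, of the 4 muscle products under 8 ways of scaling or correcting; bars are 95% counting intervals, drawn for the first 6. miR-133-3p lies between -0.44 and -0.26 throughout, and miR-1-3p lies left of 0 except after the guanine line was subtracted, where it lies at 0.20.

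The authors' deposited table of known miRNAs marked 14 of 196 products as different between the libraries, and none of the 4 muscle products was among them. The authors' deposited table gave log2 ratios of RPM, ethanol over control, of -0.14 for miR-1-3p, -0.65 for miR-1-5p, -0.37 for miR-133-3p and -0.48 for miR-133-5p. Its p-values were 0.0484 for miR-1-5p, 0.0233 for miR-133-5p and 2.11e-90 for miR-133-3p, and it lists 0 for miR-1-3p. The p-values of the authors' deposited table compare the 2 libraries, not the treatments, and the smallest of them fell on the products with the most reads, not on those with the largest ratios.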

How the data were processed

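Per the labels, each group is 1 pooled RNA sample of heads. For either library the authors deposited raw counts of reads per mature miRNA and a total read number. The deposited RPM is the count divided by that total, per 1000000 reads. A further table deposited by the authors holds a log2 ratio of RPM and a p-value for known miRNAs. Reads were placed on build BDGP5, as the submitters' processing notes name it. The sources used here do not say which aligner, counter or test was used, nor what the total includes. Counts of 5 or more are listed.

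The largest count was kept for a name on several lines, and miR-276b-5p, identical to miR-276a-5p, was dropped. CPM was computed over all known miRNA reads. A sum of 100 reads in the 2 libraries was required for comparison, with 2-fold as the limit. Shares have exact Clopper-Pearson intervals, ratios exact conditional binomial ones, and arm and pair ratios exact conditional odds-ratio ones. Scaling factors came from edgeR 4.0.16 (TMM) and DESeq2 1.42.0, odds intervals from R 4.3.3 and duplexes from ViennaRNA 2.7.2. The other steps ran in Python 3.11.15 with SciPy 1.17.1, numpy 2.4.6 and pandas 2.3.3, and were tested on simulated data. Gene neighbours came from Ensembl release 115 on BDGP6; no coordinates are given because the builds differ.

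Named products were all members, the 2 next above and below each in control CPM, the 3 nearest in log2 ratio, the 3 most unequal hairpins, the 3 largest arm shifts and the marker lists. The members and lists were chosen with earlier results of these data known. Alternatives were other scalings and denominators, summed copies, a minimum of 10 reads and a guanine correction. The table of candidate miRNAs was not used.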

Additional observations from a re-analysis of the deposited data

How the results depend on the processing

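No paired analysis was possible because each group has 1 library, and for the same reason no library could be left out. The log2 ratio of miR-1-3p was -0.056 in CPM, and moved beyond its counting interval to -0.14 in RPM, -0.085 with TMM, -0.036 with size factors, -0.081 with miR-1-3p out of the denominator, -0.18 with the 4 most abundant products out of it, and 0.20 after the guanine line was subtracted. That of miR-133-3p, -0.28 in CPM, moved to -0.37 in RPM, -0.40 without the 4 most abundant products and -0.44 after the guanine line was subtracted. miR-133-5p and miR-1-5p stayed within their counting intervals in all 7 alternatives. The upper end of the log2 interval of miR-133-5p, 0.03 in CPM, lay below 0 in RPM (-0.05) and without the 4 most abundant products (-0.090). That of miR-1-5p, 0.11 in CPM, lay below 0 without the 4 most abundant products (-0.011). With at least 10 reads, 12 of 221 products passed 2-fold, against 6 of 168 with at least 100 reads; no muscle product passed it under any setting. The arm ratio of mir-1 and the ratio of miR-133-3p to miR-1-3p did not change when copies were summed, since neither name is listed more than once. Depth limits miR-1-5p, with 79 reads, the most.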
